A study of Mus musculus with 2 samples.

Results

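Interferon-responding microglia were taken here as 50 cells of a mouse retina library made after sodium iodate (NaIO3), out of 331 C1q-expressing cells that passed the same gate and 15988 barcodes in the series. They were chosen by a measured value, the summed share of 6 interferon-induced transcripts (Ifit1, Ifit2, Ifit3, Rsad2, Isg15 and Oasl2), which had to be at least 0.1% of a cell's UMIs (unique molecular identifiers, 1 per captured transcript). The gate asked for at least 3000 UMIs, at most 15% mitochondrial UMIs, at least 0.3% from C1qa, C1qb and C1qc together, fewer than 3 UMIs of Nkg7, Xcl1 and Gzma, fewer than 5 UMIs of 6 cell cycle genes, and less than 0.2% from the cytokine genes Il1b, Tnf, Ccl3 and Ccl4. The comparison cells were the 149 cells of the gate with a rule-gene share below 0.03%, called interferon-low below, and 132 intermediate cells lay between the limits.

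The study gave mice NaIO3, an oxidant that damages the pigment epithelium and then the photoreceptors, at 20 mg per kg into a vein, and control mice received the same volume of phosphate-buffered saline (PBS). Retinas were taken on day 7, and those of 6 mice were pooled into 1 single-cell library per treatment, so cells cannot be assigned to mice. The labels give no strain, age or genotype, call both libraries CD11b+ microglia, and describe CD11b bead selection for the NaIO3 pellets alone. With 1 library per treatment, and with members chosen on their own counts, no difference below was tested, and all 95% intervals cover counting error only.

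Type I interferons bind the receptor made of Ifnar1 and Ifnar2, whose kinases Jak1 and Tyk2 activate the factor ISGF3. This factor, which holds Stat2 and Irf9, binds an element called the ISRE upstream of genes that restrict viral replication. Interferon-gamma uses a separate receptor and acts through GAS elements. Microglia, the resident macrophages of the retina, are known to switch on such genes in part of their population in ageing, injury and infection.

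Promoters of the rule genes show which letters stand upstream of the transcripts that chose the cells. In RefSeq (GRCm38.p6) promoter windows, the ISRE core GAAANNGAAA was searched on both strands over the 250 bases before each start. It was found for 4 of the 6 rule genes and for 936 of the 27025 genes in the table, 3.46%. The 4 rule-gene promoters that hold it follow, 160 bases each up to the start and 5′ to 3′ on the gene's strand, with the ISRE matches in capitals. They lie at chr19:34640729-34640888 (plus strand), chr19:34583369-34583528 (plus), chr12:26456453-26456612 (minus) and chr4:156200819-156200978 (minus), in the order printed.
Ifit1: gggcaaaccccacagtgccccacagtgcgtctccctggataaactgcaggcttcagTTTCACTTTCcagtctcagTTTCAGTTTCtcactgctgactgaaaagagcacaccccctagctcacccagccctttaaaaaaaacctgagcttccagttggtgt
Ifit3: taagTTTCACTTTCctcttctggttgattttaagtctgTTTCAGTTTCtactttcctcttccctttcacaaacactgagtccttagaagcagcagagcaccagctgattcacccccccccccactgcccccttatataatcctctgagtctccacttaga
Rsad2: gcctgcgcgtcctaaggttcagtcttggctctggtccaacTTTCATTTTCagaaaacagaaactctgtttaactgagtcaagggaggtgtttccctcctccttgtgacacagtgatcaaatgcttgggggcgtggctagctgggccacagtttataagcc
Isg15: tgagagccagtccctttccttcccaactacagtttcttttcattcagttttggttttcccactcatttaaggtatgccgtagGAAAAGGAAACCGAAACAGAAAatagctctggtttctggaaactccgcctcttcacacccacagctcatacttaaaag

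Ifit1 held 2 matches, beginning 104 and 85 bases before the start, and Ifit3 held 2, at 156 and 122 bases. In both genes, and in Rsad2 at 120 bases, the core read on the opposite strand. Isg15 held 3 matches that overlap each other, at 78, 72 and 66 bases. No match stood in the windows of Ifit2 and Oasl2. Among other antiviral effector genes 19 of the 47 with a promoter in the table held the core (40.4%), against 9 of 13 interferon-gamma associated genes, 3 of 18 genes of MHC class I presentation, 0 of 10 nucleic acid sensors, 1 of 14 homeostatic and 1 of 17 disease-associated microglia genes. The GAS core TTCNNNGAA stood in 8.13% of all genes, in 7 of the 13 interferon-gamma associated genes and in 4 of the 47 effectors. These are matches of letters, and the data hold no measurement of factor binding.

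The NaIO3 library held 9746 barcodes and 75981079 UMIs, and the PBS library 6242 barcodes and 26605477 UMIs, with 24 barcodes in common and none of them a member's. In NaIO3 the successive limits left 4705, 4669, 856, 740, 414 and 331 barcodes, so members were 15.1% of the gated cells (exact binomial interval 11.4 to 19.4). In PBS only 7 cells passed the gate and 0 of them were members, which allows a share of up to 41.0% (exact limit), so the control library cannot show whether such cells were present there. Those 7 cells held 2 rule-gene UMIs, both Ifit3, and their other antiviral effectors summed to 1679 CPM (Poisson interval 1312 to 2118), where CPM are UMIs scaled to the group's total so that 1% of UMIs equals 10000 CPM. The corresponding level in NaIO3 was 6741 CPM in interferon-low cells and 15445 CPM in members. Other lists differed less or the other way. Interferon-gamma associated genes summed to 355 CPM (199 to 585) in the 7 PBS cells and 351 CPM in interferon-low cells. Nucleic acid sensors stood at 402 CPM (234 to 644) against 602 CPM, and homeostatic microglia genes at 25027 against 8495 CPM.

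Members were deep cells, with a median of 10846 UMIs (lowest 3101, highest 36806), against 7886 in interferon-low and 11080 in intermediate cells. Their rule-gene share had a median of 0.146% and reached 0.520%, and 38 of the 50 lay between 0.1 and 0.2%. The 5 members nearest the limit stood at 0.101 to 0.108%, and the 5 cells just outside it at 0.0929 to 0.09997%, so no gap separated members from intermediate cells. All 6 rule genes were detected in 20 members, 5 in 13, 4 in 8, 3 in 7 and 2 in 2 members. In interferon-low cells 68 of 149 had no rule gene and 50 had 1. When each cell was thinned to 3000 UMIs, where the limit equals 3 UMIs, 42 of 50 members, 39 of 132 intermediate cells and 0 of 149 interferon-low cells reached it. The thinned score reuses the 6 genes that chose the groups. Interferon-low cells held a median of 1 rule-gene UMI (upper quartile 2), so most could not reach 3 in any draw. Their 0 was largely fixed in advance.

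The label was checked against marker genes. A UMI of P2ry12, Tmem119 or Sall1, which mark resident microglia, was found in 35 of 50 members, 70.0% (55.4 to 82.1). The share was 57.05% in interferon-low cells (85 of 149, 48.7 to 65.1). It was highest in intermediate cells, 103 of 132 or 78.0% (70.0 to 84.8). Among members Tmem119 was found in 34 cells, P2ry12 in 15 and Sall1 in 0. Csf1r, the receptor for the main growth factor of the lineage, was present in 47 members. A UMI of Mrc1, Cd163, Lyve1, F13a1, Cbr2 or Stab1, which mark border macrophages, was also found in 35 members and in 84 interferon-low cells. These genes leave out Ms4a7 and Pf4 of the macrophage list. Ms4a7 was found in 39 members and 103 interferon-low cells, and Pf4 in 21 members and 84 interferon-low cells. The summed level of 12 microglia markers was 15168 CPM in members against 13345 CPM in interferon-low cells, with Sall1 at 0 in members. The 8 macrophage markers summed to 893 against 1405 CPM, with Lyve1 at 0 in members, and the 8 monocyte markers to 292 against 456 CPM, with Vcan among the markers at 0 in members. T or NK cell markers stood at 4.73 against 5.04 CPM, with 5 of 8 at 0, Cd3e, Cd3d and Trac among them. The microglia list includes the 3 C1q genes and the T or NK cell list the 3 genes on which the gate was set. Whether single members were resident or had entered the retina was not tested.

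The 6 rule genes had these summed levels by construction, and they are given as a description. Ifit2, an RNA-binding translation inhibitor, stood at 264 CPM in members, 54.7 in intermediate and 9.46 in interferon-low cells. Ifit1, which binds RNA caps of foreign type, stood at 213, 53.6 and 8.20 CPM, and Ifit3, which stabilises Ifit1, at 404, 107 and 18.3 CPM. Rsad2 encodes viperin, which makes a chain-terminating nucleotide, and stood at 328, 57 and 13.2 CPM. Isg15, a ubiquitin-like modifier, stood at 300, 119 and 24.6 CPM, and Oasl2, of the oligoadenylate synthetase family, at 336, 192 and 49.2 CPM. Each gene was also read in cells picked by the other 5 genes alone. Ifit1 was then 12.2 times as high in cells at the limit as in cells below 0.03% (7.90 to 19.3), Ifit2 11.9 times, Ifit3 9.20 times, Rsad2 8.91 times, Isg15 4.68 times and Oasl2 3.28 times (2.63 to 4.10). The rule genes thus varied together in single cells, Oasl2 least.

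As a background, 426 rods of the NaIO3 library were read, picked as photoreceptor-rich cells without a C1q UMI, with a median of 4126 UMIs. Rule-gene UMIs in rods can be free RNA or the rods' own, which cannot be told apart here. The rule genes summed to 71.7 CPM there (61.5 to 83.1), against 1845 CPM in members, and 4 of 426 rods reached the limit (0.939%, 0.256 to 2.39). Their make-up also differed. In rods Ifit3 gave 39.2%, Ifit1 30.7%, Oasl2 25.6% and Ifit2 0% of the rule-gene UMIs, while in members Ifit3 gave 21.9%, Ifit1 11.5%, Oasl2 18.2% and Ifit2 14.3%. Rsad2 and Isg15 gave 17.8% and 16.3% in members but 2.27% each in rods. In 1913 PBS rods the rule genes summed to 0.979 CPM.

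Beyond the rule, most other antiviral effectors were higher in members. A list of 60 other effectors held 56 genes with at least 10 CPM in either group; 51 of these were at least 1.5 times higher than in interferon-low cells and 1 was at least 1.5 times lower. Over all 8939 genes at that level, 12.3% were at least 1.5 times higher and 21.7% lower, with a median log2 ratio of -0.10, against 1.55 for the effectors. Ifit1bl1, Ifit3b, Parp10, Cmpk2, Ifi205 and Helz2 reached 10 CPM in members alone, so the limit itself favoured their being counted as higher. Ifit3b, a close copy of Ifit3, stood at 88.4 against 8.20 CPM, 10.8 times higher (5.82 to 21.5). Cmpk2, the mitochondrial kinase encoded next to Rsad2, was 8.58 times higher, and Oasl1, which restrains translation of Irf7, 7.64 times (96.3 against 12.6 CPM). Mx1, a GTPase that blocks influenza virus, was 5.17 times and Ifi44 5.90 times higher. Slfn1, of the Schlafen family of growth regulators, was 6.23 times higher (4.50 to 8.75), with a UMI in 30 of 50 members and 35 of 149 interferon-low cells. Ifit1bl1 had 21 UMIs in 10 members and 1 UMI in interferon-low cells. Reads of near-identical copies (the Ifit, Ifi200, Oas1 and H2-Q families) may be split between genes by the counting, so single members of those families are uncertain.

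At the weak end were abundant effectors. Bst2, or tetherin, which holds budding virions on the cell, stood at 1417 against 900 CPM (1.58 times), and Ifitm3, which blocks viral fusion, at 1389 against 598 CPM (2.32 times). Lgals3bp was 1.14 times higher (1.02 to 1.28). Ifi27, an interferon-induced gene in human cells, was lower, at 14.2 against 49.8 CPM.

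These effectors, which took no part in the choice of cells, also graded with the rule genes cell by cell. Their summed share had a median of 1.47% of UMIs in members (range 0.360 to 3.52), 1.04% in intermediate cells (0.243 to 2.07) and 0.667% in interferon-low cells (0.169 to 1.56). Of the 50 members 48 lay above the median interferon-low cell and 22 above the highest, so the distributions overlapped. Across the 331 cells Pearson's r between the 2 shares was 0.66 and Spearman's rho 0.62, or 0.58 and 0.51 after thinning, for cells that share 1 library. In thinned cells a member had a median of 21.5 of the 58 effectors in the files with a UMI, an intermediate cell 15 and an interferon-low cell 10.

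**Figure D1:**
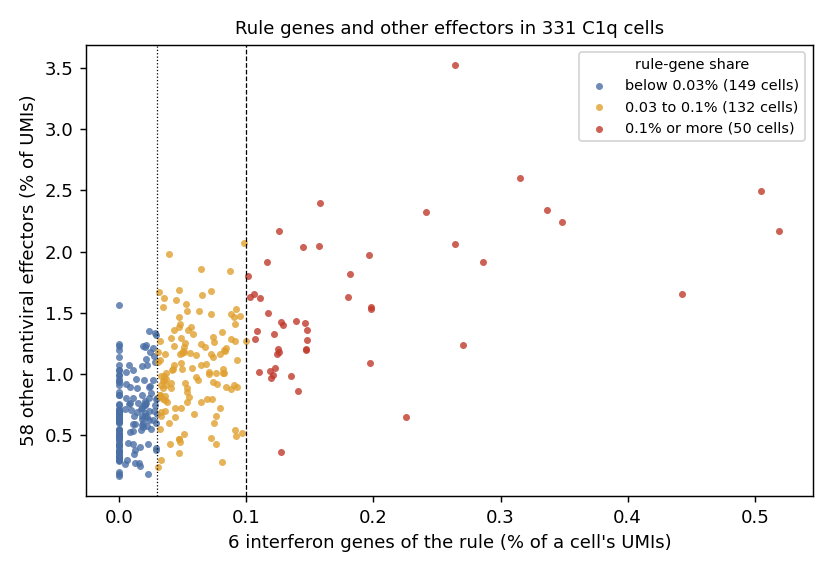
Each point is 1 of the 331 gated cells, with the share of UMIs from the 6 rule genes on the x axis and the share from 58 other antiviral effectors on the y axis; dotted and dashed lines mark 0.03% and 0.1%. Members reach effector shares of up to 3.52%, yet many lie within the range of interferon-low cells, which ends at 1.56%.

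The gradient continued inside the members. In the 6 cells with a rule-gene share of at least 0.3%, effectors summed to 21780 CPM, against 14483 CPM in the 44 members between 0.1 and 0.3%. Slfn5 stood at 113, 267, 447 and 958 CPM from the lowest of 4 bands to the highest, and Irf7 at 127, 189, 291 and 575 CPM. Usp18, a protease that removes Isg15 and blocks the receptor, stood at 35.9, 54.7, 140 and 419 CPM. Ifi44 stood at 165 CPM (133 to 203) and 180 CPM (101 to 296) in the 2 upper bands, whose intervals overlap.

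**Figure D2:**
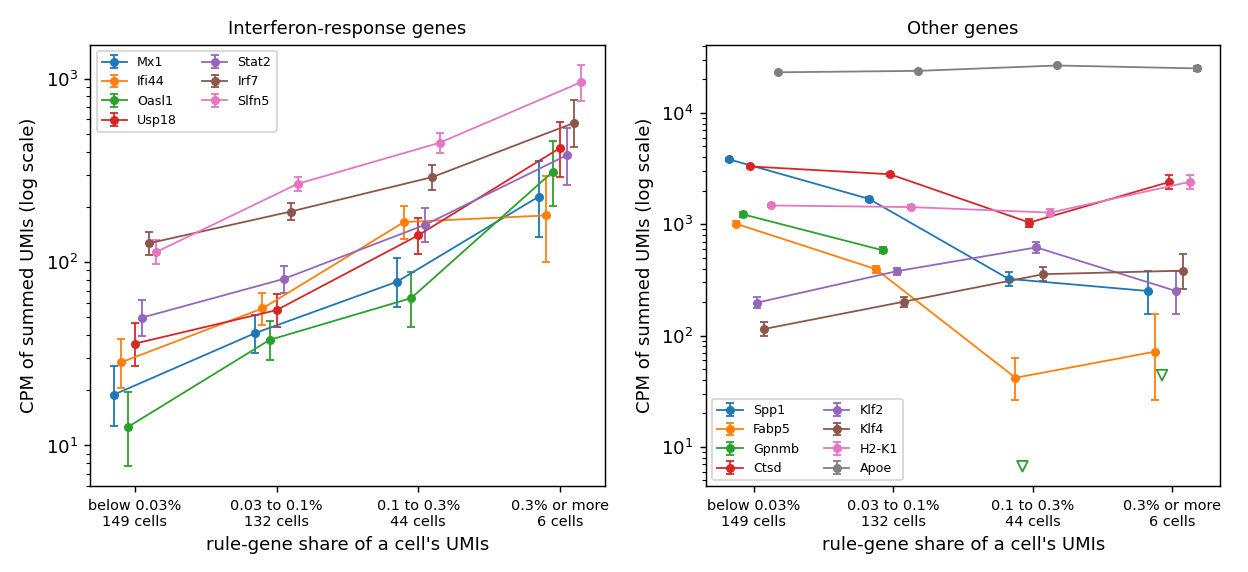
Summed level in CPM (log axis) of 7 interferon-response genes (left) and 8 other genes (right) in 4 bands of the rule-gene share, with exact Poisson 95% intervals; open triangles give the upper end of the interval where no UMI was counted, and points are offset sideways for sight. Interferon-response genes step up from band to band, with overlapping intervals between a pair of neighbouring bands for Ifi44, Oasl1 and Usp18, whereas Gpnmb is at 0 in both upper bands and Apoe stays between 23178 and 26672 CPM.

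No interferon transcript was found in the members. All 10 interferon genes on the list had 0 UMIs there, which allows up to 5.82 CPM each (exact Poisson limit). In the whole NaIO3 library Ifnb1, which encodes interferon-beta, had 19 UMIs, all in 1 barcode with 2117 UMIs and no C1q UMI, whose rule-gene share was 0.567%. Ifng had 245 UMIs in 78 barcodes, 72 of which held at least 3 UMIs of the NK and T cell genes Nkg7, Xcl1 and Gzma. The 78 barcodes had a median depth of 36851 UMIs, and 49 of them were also over the C1q limit. Only 1 Ifng UMI lay in the gate. The alpha interferons listed (Ifna1, Ifna2, Ifna4 and Ifna5) had 0 UMIs in the library.

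Of 11 measured genes of receptors and JAK-STAT signalling, 3 were at least 1.5 times higher and none lower, with a median log2 ratio of 0.23. The share higher was 27.3%, against 12.3% of all genes. Ifnar1 stood at 91.5 against 78.2 CPM (ratio 1.17, 0.842 to 1.61) and Ifnar2 at 125 against 118 CPM (1.06, 0.802 to 1.38). Stat2 was 3.80 times higher (2.84 to 5.12), at 189 against 49.8 CPM, with a UMI in 31 of 50 members and 47 of 149 interferon-low cells. Irf9, also part of ISGF3, had a ratio of 1.32 (0.962 to 1.81), and Jak1 0.99 (0.740 to 1.31). Irf7, the factor that amplifies the response, was 2.59 times higher (328 against 127 CPM), and Irf8, a lineage factor of microglia, 1.22 times (log2 ratio -0.57 at a member limit of 0.2%). Of 6 measured interferon regulatory factors, 3 (50%) passed 1.5 times higher. Usp18 was 4.92 times higher (3.54 to 6.89), but Socs3, a brake on cytokine receptors, had a ratio of 0.931 (0.688 to 1.25). In all, 2 of 6 measured negative regulators (33.3%) were at least 1.5 times higher.

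Sensors of foreign or displaced nucleic acid were higher in 12 of 15 cases and lower in none (median log2 ratio 1.07). Their share higher was 80%, against 12.3% of all genes. The cytosolic RNA sensors led: Ifih1, which encodes MDA5, stood at 137 against 38.5 CPM (3.57 times), Dhx58 was 3.21 times and Ddx58, which encodes RIG-I, 3.004 times higher. Tmem173, which encodes the adaptor STING, was 2.18 times higher (1.66 to 2.84). Mb21d1, the DNA sensor cGAS upstream of STING, had a ratio of 1.45 (0.976 to 2.13), and Aim2, a DNA sensor that forms an inflammasome, 1.03 (0.689 to 1.52).

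Genes often tied to interferon-gamma were at least 1.5 times higher in 15 of 17 measured cases with none lower (median log2 ratio 1.63), though most are also induced by type I interferon. The share higher was 88.2%, against 12.3% of all genes, and 12 of the 15 had an interval above 1. Tgtp2, Gm4951, Gbp5, Iigp1 and Gbp9 reached 10 CPM in members alone, so the limit itself favoured their being counted as higher. The immunity-related GTPases Igtp and Iigp1 were 5.15 and 4.83 times higher, Ifi47 4.25 times (115 against 27.1 CPM) and Irgm1 3.10 times. Ciita, the master regulator of MHC class II, stood at 69.4 against 22.1 CPM (3.15, 1.97 to 5.05), and its UMIs lay in 15 of 50 members and 14 of 149 interferon-low cells. Nos2 and Ido1 had 0 UMIs in both groups.

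Genes of antigen presentation were mixed. For MHC class I, 7 of 22 genes were at least 1.5 times higher (31.8%, against 12.3% of all genes) and 0 lower. The peptide transporter Tap1 was 2.16 times higher (1.57 to 2.97), the nonclassical H2-T22 2.15 times and the immunoproteasome subunit Psmb9 1.84 times. The classical heavy chain H2-K1 stood at 1422 against 1475 CPM (0.96, 0.892 to 1.04), with 2407 CPM (2085 to 2763) in the 6 cells of the top band and 1273 CPM in the other members, and B2m at a ratio of 1.10. For MHC class II, 4 of 9 measured genes (44.4%, against 12.3% of all genes) were at least 1.5 times higher. Ciita, already counted among the interferon-gamma associated genes, was 1 of them. The others were Cd74, at 3995 against 2594 CPM (1.54), H2-DMb1, at 1.52, and H2-Ab1, at 1.51, all close to the fold used.

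**Figure D3:**
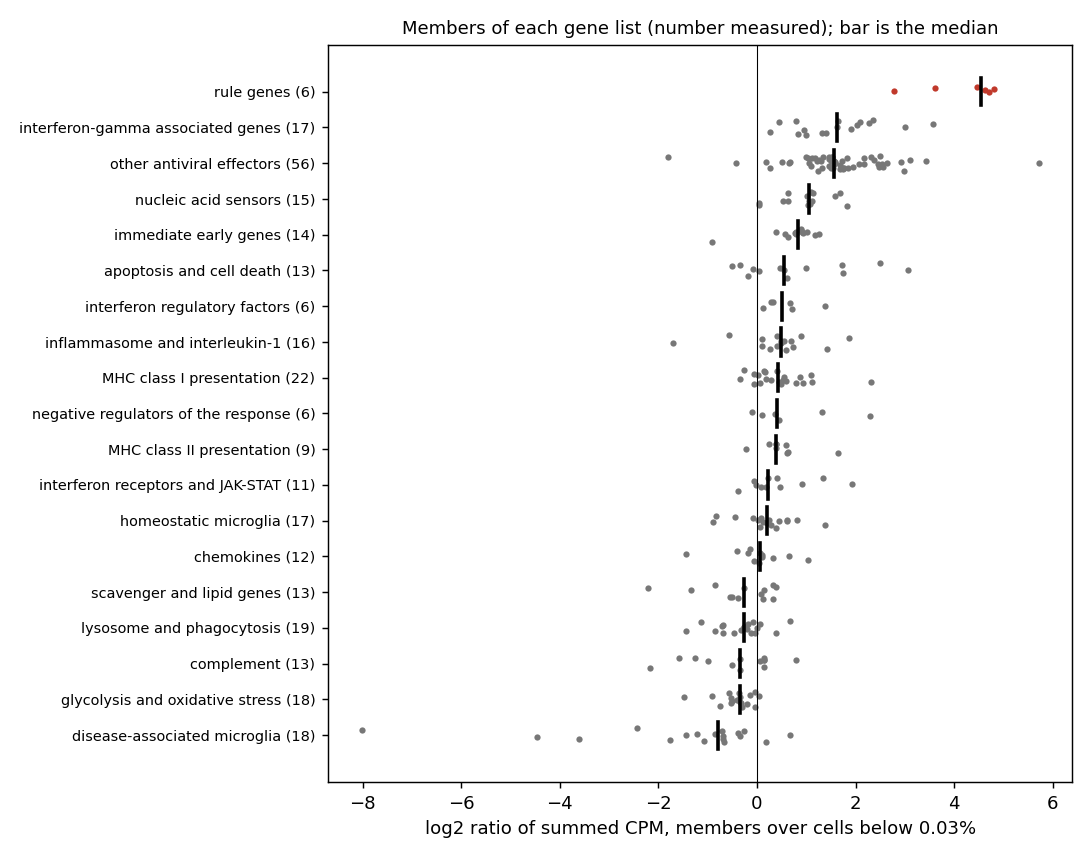
Each point is the log2 ratio of 1 gene, summed CPM in members over interferon-low cells, grouped by list with the number of measured genes; black bars are list medians and the rule genes are in red. Medians run from 1.63 for interferon-gamma associated genes, below the rule genes, to -0.78 for disease-associated microglia genes, where Gpnmb, at 0 UMIs in members, is drawn at the floor of 3 UMIs.

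Chemokines and inflammatory genes were mixed. Of 12 measured chemokines 2 were at least 1.5 times higher (16.7%, near the 12.3% of all genes). Only 1 was lower (8.33%, against 21.7% of all genes). The gate itself limited Ccl3 and Ccl4, which are on this list. Cxcl10, a chemokine often used as an interferon reporter, stood at 44.2 against 21.4 CPM (2.06, 1.20 to 3.5) but had UMIs in only 7 of 50 members and 11 of 149 interferon-low cells. Ccl8, a monocyte attractant, was lower, at 44.2 against 120 CPM, with UMIs in 4 members, and at a member limit of 0.2% its log2 ratio was 0.072. Of 16 inflammasome and interleukin-1 genes 6 were higher (37.5%) and 1 lower (6.25%). Casp4, the mouse caspase-11 that senses lipopolysaccharide, had 19 UMIs in members and 13 in interferon-low cells, 3.66 times higher (1.71 to 8.06). Of the genes in the series title, Il1b stood at 139 against 74.4 CPM (1.87, 1.40 to 2.48), with 11 members positive, although the gate itself limited Il1b. Nlrp3 stood at 45.8 against 28.4 CPM (1.61, 0.975 to 2.63) and Cd36 at 106 against 83.9 CPM (1.26, 0.926 to 1.70), so both intervals include a ratio of 1. Il1rn, the antagonist of the interleukin-1 receptor, was lower, at 9.47 against 30.9 CPM (0.307).

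Cell death genes on the list were higher in 6 of 13 measured cases (46.2%, against 12.3% of all genes) and lower in none. Tnfsf10, Mlkl and Ripk3, all counted as higher, reached 10 CPM in members alone (15.8, 14.2 and 12.6 CPM). The limit itself thus favoured their being counted as higher. Tnfsf10, the death ligand TRAIL, had 10 against 3 UMIs and Mlkl, the effector of necroptosis, 9 against 4 UMIs. Pmaip1, which encodes the BH3 protein Noxa, was 3.29 times higher (2.03 to 5.38). Bax, a pore-forming protein of mitochondrial apoptosis, had a ratio of 0.881 (0.684 to 1.13).

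Homeostatic microglia genes went both ways. Of 17 measured genes 4 were at least 1.5 times higher (23.5%, against 12.3% of all genes). Another 2 were lower (11.8%, against 21.7%), and the median log2 ratio was 0.21. The lower genes were Fcrls, at 131 against 234 CPM (0.560), and Sparc (0.538). The list summed to 8495 CPM in interferon-low and 9646 CPM in intermediate cells. It stood at 9936 CPM in members below 0.3% but at 8393 CPM in the 6 cells of the top band. The orphan receptor Gpr34 stood at 74.2 against 28.4 CPM (2.61, but a log2 ratio of -0.26 at a member limit of 0.2%), Tmem119 at 254 against 144 CPM (1.77, 1.44 to 2.17) and the fractalkine receptor Cx3cr1 at 1274 against 832 CPM (1.53, 1.40 to 1.67). P2ry12, the ADP receptor that guides processes, did not differ beyond counting error, at 44.2 against 41.6 CPM. Trem2, the lipid sensor required for the disease-associated state, was lower, at 513 against 699 CPM (0.734).

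Genes of the disease-associated, lipid-handling state were lower as a list. Of 18 measured genes on that list 13 were at least 1.5 times lower (72.2%, against 21.7% of all genes) and 1, Axl, was higher. Gpnmb, a glycoprotein of lysosome-rich phagocytes, had 0 UMIs in members and 1944 in interferon-low cells. With the 0 set at 3 UMIs over the group it was 259-fold lower, and the exact upper limit of the ratio was 0.00475. That fold depends on the settings: its log2 value of -8.02 became -1.97 at a member limit of 0.05% and -1.53 when cells were thinned and scored again, both of which take intermediate cells in as members. Gpnmb was detected in 0 of 50 members (upper exact limit 7.11%), 29 of 132 intermediate and 36 of 149 interferon-low cells, and 96.3% of the interferon-low UMIs came from 10 cells. In rods 1.17% of cells had a Gpnmb UMI, at the lower depth given above. Spp1, which encodes osteopontin, stood at 314 against 3822 CPM, 12.2-fold lower (10.6 to 14.1), with UMIs in 23 of 50 members and 80 of 149 interferon-low cells. Fabp5, a fatty acid carrier, stood at 45.8 against 1009 CPM, 22.04-fold lower, with 55.2% of the members' UMIs in 1 cell. The protease Ctsd was 2.72-fold lower (2.52 to 2.94), though it stood at 2395 CPM in the 6 cells of the top band and 1036 CPM in the other members, and the galectin Lgals3 stood at 533 against 1130 CPM, with 1173 CPM in the top band and 436 CPM in the other members. Apoe, the most abundant lipid carrier of these cells, stood at 26466 against 23178 CPM (1.14, below 1 at a C1q limit of 0.6%), and the phosphatidylserine receptor Axl was 1.60 times higher (1.35 to 1.91).

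A minority of interferon-low cells carried much of this contrast. When the 36 interferon-low cells with a Gpnmb UMI were left out, a comparison chosen after seeing the data, the log2 ratio of Fabp5 went from -4.46 to -0.45, of Ctsd from -1.44 to -0.49 and of Spp1 from -3.61 to -2.15. The effector median moved only from 1.55 to 1.54. Of the 41 gated cells with at least 5 Gpnmb UMIs or 0.5% Spp1, 3 reached the interferon limit after thinning (7.32%, 1.54 to 19.9). Among the 266 cells without Gpnmb 69 reached it (25.9%, 20.8 to 31.6). The gated cells as a whole stood at 24.5%. These sets overlap, because a cell with much Spp1 and no Gpnmb UMI belongs to both. All 50 members lacked Gpnmb UMIs, so the set without Gpnmb held every member by a result already seen. The shares therefore add no separate evidence, and their difference was not tested.

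**Figure D4:**
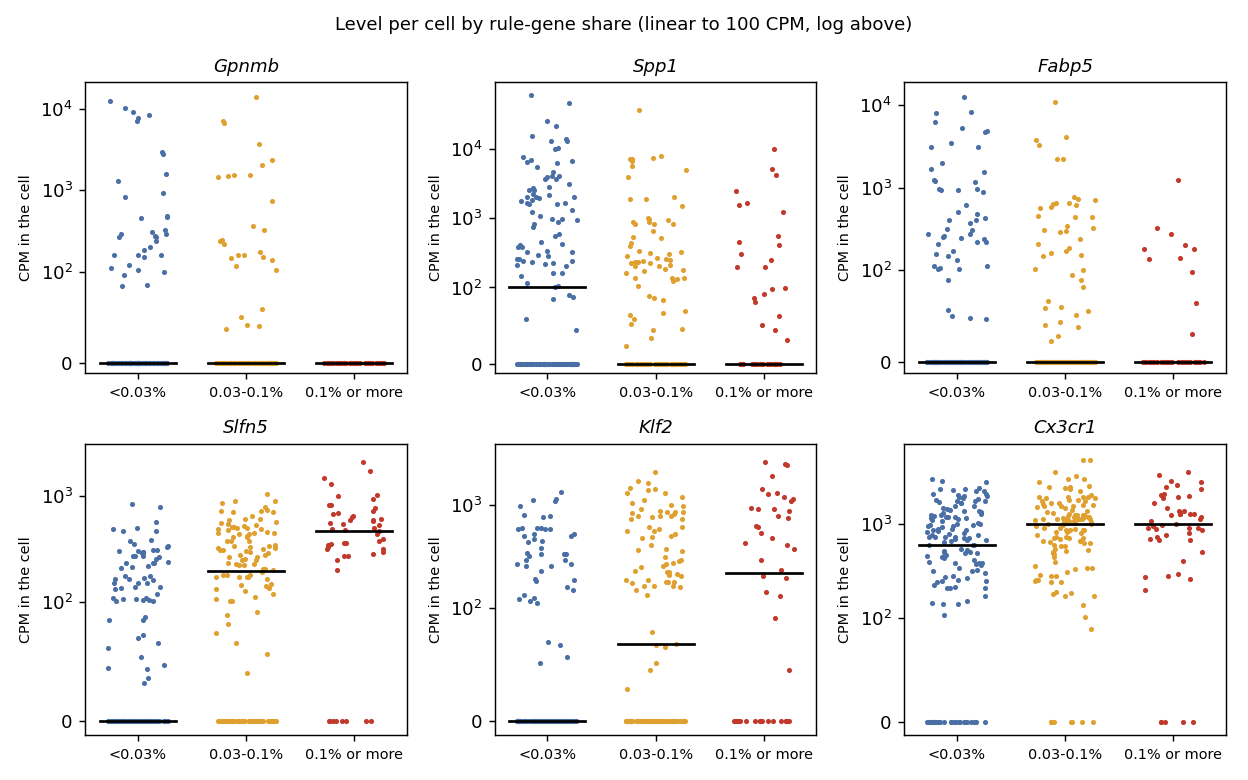
CPM per cell (linear to 100, log above) of 6 genes in interferon-low (blue), intermediate (yellow) and member cells (red), with the median as a black line. Gpnmb is absent from all 50 members, Spp1 and Fabp5 run to their highest levels in a minority of interferon-low and intermediate cells, and Slfn5 has its highest median in members.

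Scavenger and lipid genes were lower in 3 of 13 measured cases (23.1%), close to the 21.7% of all genes, and higher in none. The scavenger receptor Msr1 stood at 56.8 against 144 CPM, but its log2 ratio of -1.34 became -0.096 at a member limit of 0.2%. The cholesterol exporter Abca1 had a ratio of 1.05 (0.886 to 1.25). Lysosomal and phagocytic genes were lower in 6 of 19 cases (31.6%) and higher in 1. Complement genes were lower in 4 of 13 (30.8%) and higher in 1 (Cfb, 1.73 times). Genes of glycolysis and oxidative stress were lower in 3 of 18 (16.7%), below the share of all genes. The antioxidant enzyme Hmox1 had a ratio of 0.532 (0.349 to 0.787), and its log2 value of -0.91 became -0.080 at a member limit of 0.2%.

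Immediate early genes, transcribed soon after many stimuli, were higher in 11 of 14 cases (78.6%, against 12.3% of all genes) and lower in 1. Fosb stood at 947 against 397 CPM (2.38), Egr1 at 1304 against 644 CPM (2.02) and Fos at 2295 against 1215 CPM (1.89). Their summed share ranged from 0 to 2.73% of UMIs in members (median 0.893%) and from 0 to 3.80% in interferon-low cells (median 0.174%). The groups overlapped over nearly the whole range, and the part of these genes in the interferon contrast was not tested.

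Over the whole transcriptome, 283 of 6773 genes with at least 20 CPM in either group and 20 summed UMIs were at least 2 times higher in members (4.18%), and 459 were at least 2 times lower (6.78%), the 6 rule genes aside. Of the 283, 76 were on at least 1 of the interferon-related lists, as was 1 of the 459. Among all 6773 genes 128 were on these lists. Outside all lists the genes highest in members included Ifi206 (3.78 times) and Ifi203 (3.15 times) of the DNA-binding Ifi200 family and Znfx1, an antiviral RNA helicase (3.54 times). Other high genes were the transcription factors Klf4 (360 against 115 CPM, 3.14 times) and Klf2 (571 against 198 CPM, 2.89 times), of which Klf2 restrains myeloid activation, and the surface protein Ly6a (683 against 224 CPM, 3.04 times). Klf2 was detected in 31 of 50 members and 48 of 149 interferon-low cells, and in the 6 cells of the top band it stood at 251 CPM, below the 620 CPM of the band beneath. Klf2, Klf4 and Ly6a are also known from endothelium, and endothelial markers summed to 120 CPM in members and 71.9 CPM in interferon-low cells, with 3 of 6 higher and none at 0. Their share ranged from 0 to 0.734% of a member's UMIs, with a UMI in 10 of 50 members, and from 0 to 0.205% of an interferon-low cell's, with a UMI in 26 of 149. Their part in these genes was not tested. Ube2l6, the conjugating enzyme for Isg15, was 2.64 times higher, and Clec2d, a ligand of an inhibitory NK cell receptor, 2.80 times.

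The lowest genes outside the lists included Mmp12, the macrophage elastase, with 1 UMI in members and 120 in 9 interferon-low cells. The monocyte marker Ly6c2 stood at 17.4 against 107 CPM, with UMIs in 2 members and 28 interferon-low cells. Alcam, an adhesion molecule, stood at 9.47 against 64.3 CPM. The gate's 6 cell cycle genes do not include the replication genes Lig1 and Pclaf, which had ratios of 0.255 and 0.264. The low values of 3 of these genes weakened when cells were thinned and scored again, with the log2 ratio of Mmp12 going from -5.58 to -1.15, of Ly6c2 from -2.63 to -0.23 and of Alcam from -2.76 to -0.22. For Mmp12 in thinned cells of the first grouping it was -0.30. Pde6h, a cone gene, had 0 UMIs in members and 83 in 10 interferon-low cells, 75.9% of them in 1 cell. Rod markers together stood at 2277 CPM in members and 4382 CPM in interferon-low cells, and 4 members against 32 interferon-low cells exceeded 1% of UMIs from them. The calls that scrublet, a doublet caller, made in the gate were 1 member, 9 intermediate and 17 interferon-low cells.

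C1q cells that the gate left out for either the cytokine or the cell cycle limit were scored the same way. Cells over both limits were left aside. After thinning, 32 of 83 cells over the cytokine limit reached 0.1% (38.6%, 28.1 to 49.9), as did 63 of 264 cells over the cell cycle limit (23.9%, 18.9 to 29.5) and 81 of 331 gated cells (24.5%, 19.9 to 29.5). Without thinning the shares were 27.7%, 14.02% and 15.1%, at median depths of 12478, 23354 and 9344 UMIs. Other effectors summed to 12133 CPM in cytokine-high, 9614 CPM in cycling and 9632 CPM in gated cells. Cells over the interferon limit were thus present on both sides of the cytokine and cell cycle limits, and the differences in share were not tested.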

How the data were processed

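Single-cell RNA from mouse retina was measured in 2 libraries, PBS and NaIO3, grouped by the treatment label. The deposited matrices hold raw UMI counts for 31053 genes, as whole numbers without normalization, made by the authors with Cell Ranger (version 3.0.2 per the file headers; mm10 per the submitters' processing notes; annotation not given in the sources used here). Depth per member cell is in the results above, and 1 UMI is worth 1.58 CPM in members and 0.630 CPM in interferon-low cells.

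The rule, the gene lists and the named genes (of each list up to 6 highest and 3 lowest, outside lists 15 and 12, not all printed) were chosen with earlier results of these data known. Counts were summed over cells and scaled to the group total (CPM). Levels have exact Poisson intervals, shares exact binomial (Clopper-Pearson) intervals and ratios exact conditional binomial intervals, at 95%. A count of 0 was set at 3 counts over the group. Genes needed 20 CPM in either group and 20 summed UMIs, list members 10 CPM in either group. A gene could thus count as measured through 1 group alone, which favours a call in that direction. Tlr9, Socs1, H2-T24 and Casp4 reached 10 CPM in members alone, besides the genes named in the results. The shares over all genes used the same limits. Doublets were called with scrublet (scanpy 1.11.5) and kept. Thinning drew 3000 UMIs per cell. Python 3.11.15, numpy 2.4.6, scipy 1.17.1 and pandas 2.3.3 were used, and the ratio step was tested on simulated data. No test between groups was made. The alternatives changed depth, limits, scaling, comparison cells, doublets and the filter on low counts. Promoters came from RefSeq tables matched by symbol. Some genes of the lists are not reported here.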

Additional observations from a re-analysis of the deposited data

How the results depend on the processing

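The antiviral effector list kept a median log2 ratio above 1 under all 15 alternatives (1.08 to 2.06), including the 2 chosen after seeing the data (interferon-low cells without Gpnmb, and the largest cell of each group left out). The number of members depended on depth and on the limit, with 81 when cells were thinned to 3000 UMIs and scored again, 123 at a member limit of 0.05% and 12 at 0.2%. Genes at least 2 times higher and lower numbered 140 and 240 at 0.05%, 672 and 952 at 0.2%, 150 and 295 against all cells below 0.1%, and 659 and 1362 with no filter on low counts, against 283 and 459 as reported. The cause was not tested. Of 69 named genes whose counting interval left out a ratio of 1, 65 kept 1 sign throughout. The exceptions were Apoe (log2 ratio -0.026 at a C1q limit of 0.6%) and, at a member limit of 0.2%, Ccl8 (0.072), Gpr34 (-0.26) and Irf8 (-0.57), where only 12 cells remained. No paired analysis was possible because each treatment is 1 library with no replicate number. In members 1 UMI is worth 1.58 CPM, which limits the precision for genes of a few UMIs, and mice cannot be separated within the pool.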
